A study of Mus musculus with 2 samples.

Results

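Genes of the primary cilium and of intraflagellar transport were examined at E17.5 in the femoral growth cartilage of mouse embryos that lack *Tric-b*. The genes were chosen by name from the array annotation. They comprised every gene whose symbol is Ift or Bbs followed by a number, together with 16 listed genes for cilium motors, small GTPases and other cilium proteins. The rule found 35 genes of 18193 named genes, on 57 of 45037 probe sets. A further 3 listed genes, *Arl6*, *Arl13b* and *Pkd2*, were not analysed here. One array measured RNA of the cartilage plate portion that holds columnar and hypertrophic chondrocytes, and the other RNA of the portion enriched with round chondrocytes. Both portions came from embryos whose strain is labelled C57BL/6J, 129Sv, Tric-b-KO, and RNA of 3 portions was mixed for each array. With 1 array per zone, no difference has a replicate check, no test was possible, and no genotype comparison was made because wild-type arrays were not analysed here.

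The primary cilium is a single, non-motile projection of the cell surface, built on a modified centriole called the basal body. It has no ribosomes, so its proteins are carried in and out along its microtubules by intraflagellar transport. Trains made of IFT-B and IFT-A complexes move towards the tip with kinesin-2 and return with dynein-2, and an adaptor complex, the BBSome, moves membrane proteins on these trains. In growth plate chondrocytes the cilium is known as the site where Indian hedgehog signals are received and as a structure that lies along the axis of the cell columns.

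The trimmed mean signal was 496 in columnar/hypertrophic cartilage and 497 in round cartilage. MAS5, the processing named by the submitters, scales each array by a trimmed mean. This near equality therefore follows from the scaling and does not check the arrays. Signals are linear, in arbitrary units, and those under 65.9, the 40th percentile over both arrays, were treated as lying at a detection floor. Above the floor lay 26448 probe sets in columnar/hypertrophic cartilage and 27596 in round cartilage. The targeted gene, *Tmem38b*, which encodes TRIC-B, had signals on 4 probe sets between 43.1 and 304 in columnar/hypertrophic and between 69.4 and 323 in round cartilage, but where its probes lie relative to the deletion is not given in the sources used here, so it checks nothing. Zone markers separated the portions, with 6 of 7 compared columnar and 3 of 4 compared hypertrophic genes higher in columnar/hypertrophic cartilage by 2-fold or more. Of 11 round or resting chondrocyte genes, 7 were 2-fold or more lower in columnar/hypertrophic cartilage and 2 were higher, and none of 12 cartilage matrix genes differed by 2-fold. Markers of perichondrium, tendon and fibroblasts moved with the zones as well. Of 12 compared genes, 9 were at least 2-fold lower in columnar/hypertrophic cartilage, where their signals summed to 48663 against 122314 in round cartilage, and *Scx* and *Dpt* lay under the floor in columnar/hypertrophic cartilage. *Thy1*, also on that list, lay under it in both arrays. Of 4 compared skeletal muscle genes, 2 were at least 2-fold higher in columnar/hypertrophic cartilage and 1 at least 2-fold lower. Over all genes the shares were 4.28% and 6.25%. The lower gene, *Des*, lay under the floor in columnar/hypertrophic cartilage on its brightest probe set but was higher there on its other. Of the higher genes, *Tnnt3* lay under the floor in round cartilage. All 3 compared myeloid genes were higher there, against 46.8% of all genes, but none by 2-fold. No compared endothelial or erythroid gene differed by 2-fold.

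Genes of the cilium were mostly lower in columnar/hypertrophic cartilage. Of the 35 genes, 29 had a log2 difference (columnar/hypertrophic minus round) below 0, compared with 53.2% of the 12761 genes compared in all, and 6 had one above 0, compared with 46.8%. Their median log2 difference was -0.34, against -0.04 for all genes compared. The differences were moderate in size. At least 1.5-fold lower were 16 of the 35 genes (45.7%), where the share over all genes was 15.3%, but only 3 were at least 2-fold lower, where the share was 6.25%. A single gene, *Kif7*, was higher in columnar/hypertrophic cartilage by 2-fold or more, where the share over all genes was 4.28%, and it was also the only one past 1.5-fold on that side, where the share was 10.4%. The 3 scalings of the arrays tried as alternatives left 27 of 35 genes below 0, and 9 or 10 genes at least 1.5-fold lower, where the shares over all genes were between 11.9% and 12.4%. At least 2-fold lower were then 2 genes, without *Dync2h1*, and 4 when probe sets of a gene were averaged. In these bulk specimens, fewer cells of a type and less RNA per cell cannot be told apart. The part played by the perichondrial and fibroblast RNA of the round portion, whose markers moved in the same direction, was not tested. Nor was that of muscle or myeloid RNA in either portion.

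**Figure D1:**
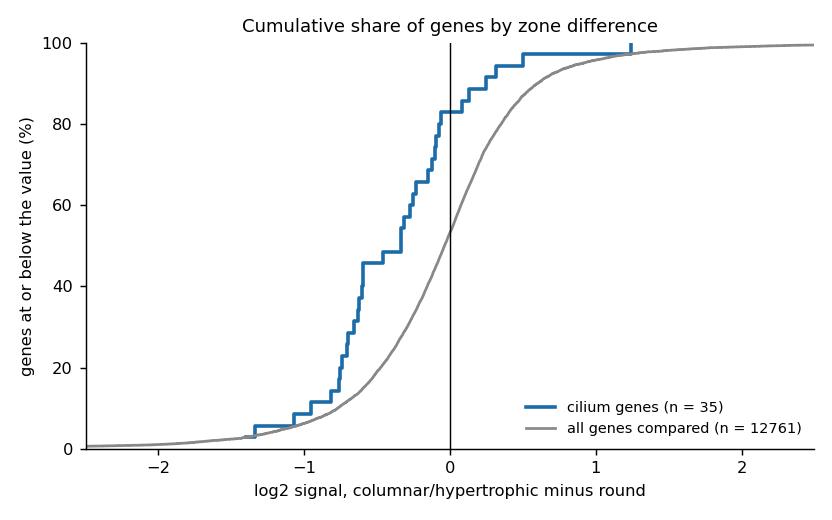
Cumulative share of genes (percent) by the log2 signal difference, columnar/hypertrophic minus round cartilage, for the 35 cilium genes (blue) and all 12761 genes compared (grey). The axis is drawn between -2.5 and 2.5, and the blue curve lies left of the grey one over most of the range, with medians of -0.34 and -0.04.

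**Figure D2:**
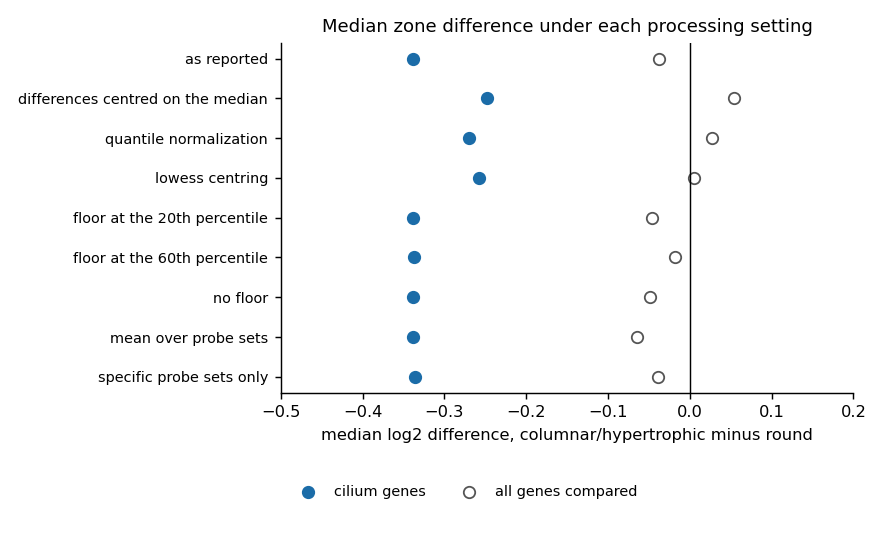
Median log2 signal difference, columnar/hypertrophic minus round cartilage, for the cilium genes (blue) and all genes compared (open circles), under the reported setting and 8 alternatives. The cilium median lies between -0.34 and -0.25 and left of the median of all genes, which lies between -0.06 and 0.05, under each setting.

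At the level of probe sets the picture was similar. Of 57 probe sets, 3 lay under the floor in both arrays and were not compared. Of the other 54, 44 had a log2 difference below 0, compared with 57.6% of all 29258 probe sets compared, and 10 had one above 0, compared with 42.4%. At least 1.5-fold lower were 24, against a background of 17.4%, and 1 was at least 1.5-fold higher, against 9.41%. At least 2-fold lower in columnar/hypertrophic cartilage were 4 of the 54, against a background of 6.24%, and 1 was at least 2-fold higher, against a background of 3.58%. Several probe sets measured 12 of the genes, and these gave the only repeated measure in the data. All compared probe sets lay below 0 for 10 of these genes, all lay above 0 for *Kif3b*, and the signs differed for *Bbs10*. The widest span between probe sets of one gene was 0.64 on the log2 scale (*Bbs10*). Between probe sets of the same gene, log2 differences varied with a pooled SD of 0.34 (5446 genes). No variation between animals enters this SD. Probe sets differ in how well they bind, so levels were compared only between the arrays.

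**Figure D3:**
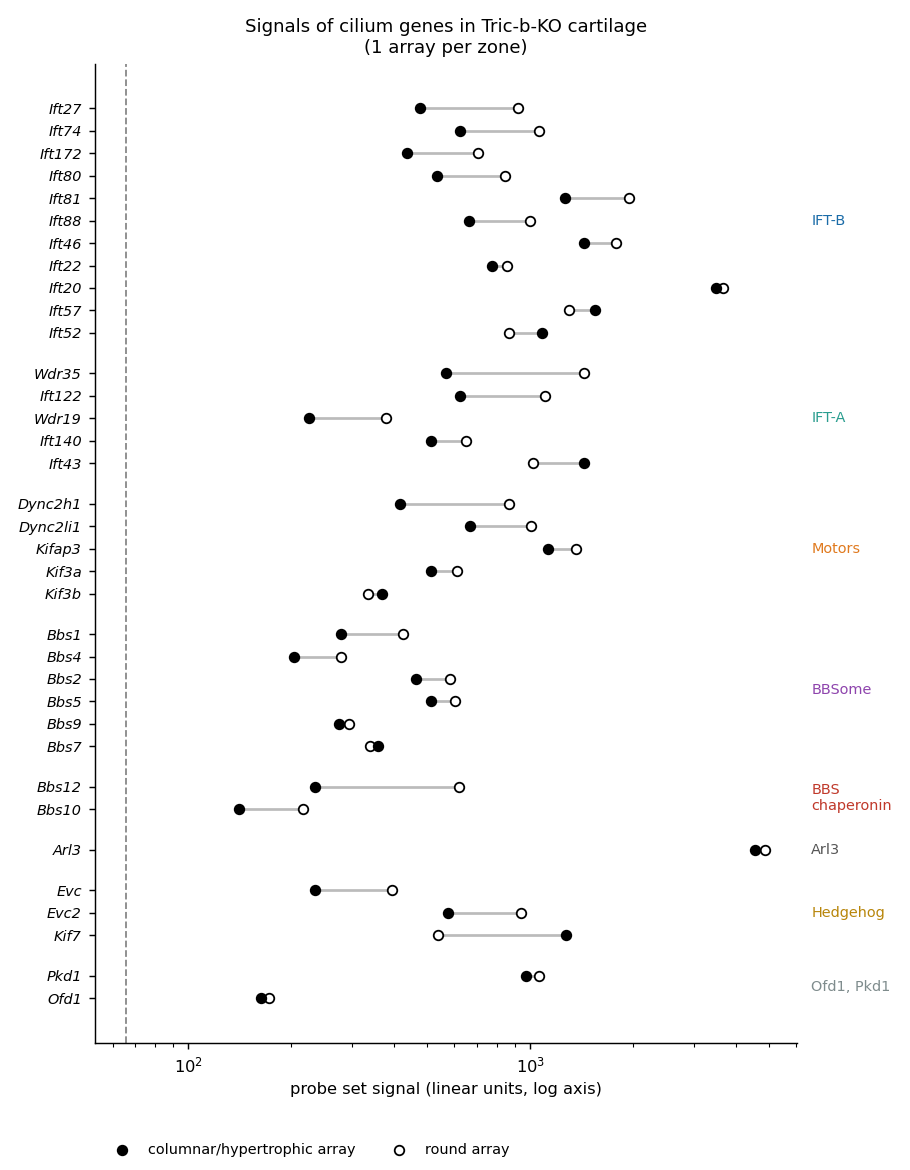
Signals (linear units, log axis) of the 35 cilium genes in columnar/hypertrophic cartilage (filled circles) and round cartilage (open circles), 1 array per zone, each gene by its brightest probe set. A dashed line marks the floor at 65.9, and the filled circle lies left of the open one for 29 genes.

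The sequences around gene starts were searched because genes of cilium assembly are known to be bound by RFX transcription factors at a paired motif, the X-box. Promoters of 31 of the 35 genes were found in the RefSeq table of build GRCm38.p6, which covers 250 bases before and 50 bases after each start. The X-box was spelled as the arm GTNNCC, 2 bases of any kind and the arm GGNNAC, where N is any base, which reads the same on both strands. It was present in the promoters of 6 of these 31 genes (19.4%) and in 1.88% of all 32851 promoters. This spelling was chosen with the matches in view, so the contrast is a description and not a test. The 7 matches, 2 of them in *Ift22*, are shown to let their arms be compared, with the match in capitals.
*Bbs1*, chr19:4906605-4906634, minus strand: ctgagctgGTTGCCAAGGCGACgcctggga
*Bbs4*, chr9:59353464-59353493, minus strand: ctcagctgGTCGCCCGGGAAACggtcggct
*Bbs7*, chr3:36613489-36613518, minus strand: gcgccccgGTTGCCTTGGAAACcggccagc
*Ift22*, chr5:136908079-136908108, plus strand: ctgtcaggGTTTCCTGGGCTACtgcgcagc
*Ift22*, chr5:136908109-136908138, plus strand: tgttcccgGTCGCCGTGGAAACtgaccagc
*Ift57*, chr16:49699199-49699228, plus strand: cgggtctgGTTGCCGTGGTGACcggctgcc
*Wdr19*, chr5:65199654-65199683, plus strand: tttgcacgGTCTCCTGGGTGACgagaacgc

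A stricter spelling, with the arms GTTNCC and GGNAAC and the same spacing, was met by *Bbs7* alone (3.23% of the 31 genes, against 0.451% of all promoters). One arm of the motif, GTTGCC or its reverse complement GGCAAC, was met by 12 of the 31 genes (38.7%, against 12.5% of all promoters) and overlaps the longer spellings. Spellings were chosen with the matches in view, and 6 further ones, most of them variants of the spacing or the letters, met between 0 and 7 of the 31 genes. The single arm is shown in capitals for the genes that were at least 1.5-fold lower in columnar/hypertrophic cartilage and are not listed above.
*Dync2h1*, chr9:7177009-7177034, minus strand: gcgacggagcttGGCAACtgctgagt
*Evc*, chr5:37337047-37337076, minus strand: ctcaggactcagGGCAACctgaacgctcag
*Ift172*, chr5:31291097-31291126, minus strand: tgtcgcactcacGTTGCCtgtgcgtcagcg
*Ift27*, chr15:78174073-78174102, minus strand: gggttgatgatgGTTGCCaggagcctgttt
*Ift88*, chr14:57424080-57424109, plus strand: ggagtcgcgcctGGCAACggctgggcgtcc
*Wdr35*, chr12:8974029-8974050, plus strand: tgggcggcggtgGTTGCCaggc

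The matches did not separate the genes by direction. Of the 6 genes with the paired spelling, 4 were lower in columnar/hypertrophic cartilage, while *Bbs7* and *Ift57* had log2 differences of 0.08 and 0.25. Of the 25 genes without it, 21 were lower. Of the 12 genes with the single arm, 10 were lower, and of the 19 without it, 15. A match describes these letters in this window and not a bound site.

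Subunits of IFT-B, the complex that forms the backbone of the train and drives transport to the tip, had a median log2 difference of -0.59 over 11 genes. Below 0 were 9 of the 11, against 53.2% of all genes. None differed by 2-fold, where 6.25% of all genes were lower and 4.28% higher by that much. *Ift27*, a small GTPase of the train that is needed for the exit of BBSome cargo, had signals of 476 in columnar/hypertrophic cartilage and 920 in round cartilage, which is 1.93-fold lower. That probe set can bind related transcripts. The specific probe set of *Ift27* gave 293 in columnar/hypertrophic and 519 in round cartilage, a log2 difference of -0.83, and the dimmest gave one of -0.39.

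*Ift74* and *Ift81*, whose proteins pair to form the tubulin-binding module of the train, were lower together. *Ift74* had signals of 622 in columnar/hypertrophic cartilage and 1057 in round cartilage, a log2 difference of -0.76. *Ift81* had signals of 1260 in columnar/hypertrophic and 1946 in round cartilage on its brightest probe set and of 713 in columnar/hypertrophic and 1084 in round cartilage on another, with log2 differences of -0.63 and -0.60. Its remaining probe set lay under the floor in both arrays. *Ift88*, whose loss abolishes cilia in mouse and which is the subunit most used to study them, had signals of 661 in columnar/hypertrophic and 997 in round cartilage, a log2 difference of -0.59.

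The outer IFT-B subunits did not lie on one side. *Ift172* and *Ift80* were lower too, while *Ift57* and *Ift20*, given below, had log2 differences of 0.25 and -0.06. *Ift172* had signals of 435 in columnar/hypertrophic cartilage and 705 in round cartilage, a log2 difference of -0.70. *Ift80*, mutated in human Jeune asphyxiating thoracic dystrophy, a skeletal ciliopathy with short ribs, had signals of 535 in columnar/hypertrophic and 845 in round cartilage, and its other probe set gave 417 in columnar/hypertrophic and 606 in round cartilage. Its log2 differences were -0.66 and -0.54. *Ift46*, a core subunit, had a smaller difference of -0.32 (1432 in columnar/hypertrophic and 1783 in round cartilage).

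The other IFT-B genes differed little or lay on the other side. *Ift22*, a small GTPase, had signals of 771 in columnar/hypertrophic cartilage and 856 in round cartilage, a log2 difference of -0.15. *Ift20*, whose protein also acts at the Golgi in sorting cargo to the cilium, had signals of 3496 in columnar/hypertrophic and 3652 in round cartilage, and its log2 difference of -0.06 turned to 0.03 when differences were centred on their median. *Ift57* was higher in columnar/hypertrophic cartilage, at 1543 against 1299 in round cartilage, a log2 difference of 0.25. *Ift52*, a core subunit bound to IFT88, was higher as well, at 1081 against 867 in round cartilage, a log2 difference of 0.32. *Ift52* and *Ift88* thus lay on opposite sides, by less than the SD of 0.34 between probe sets for *Ift52*.

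**Figure D4:**
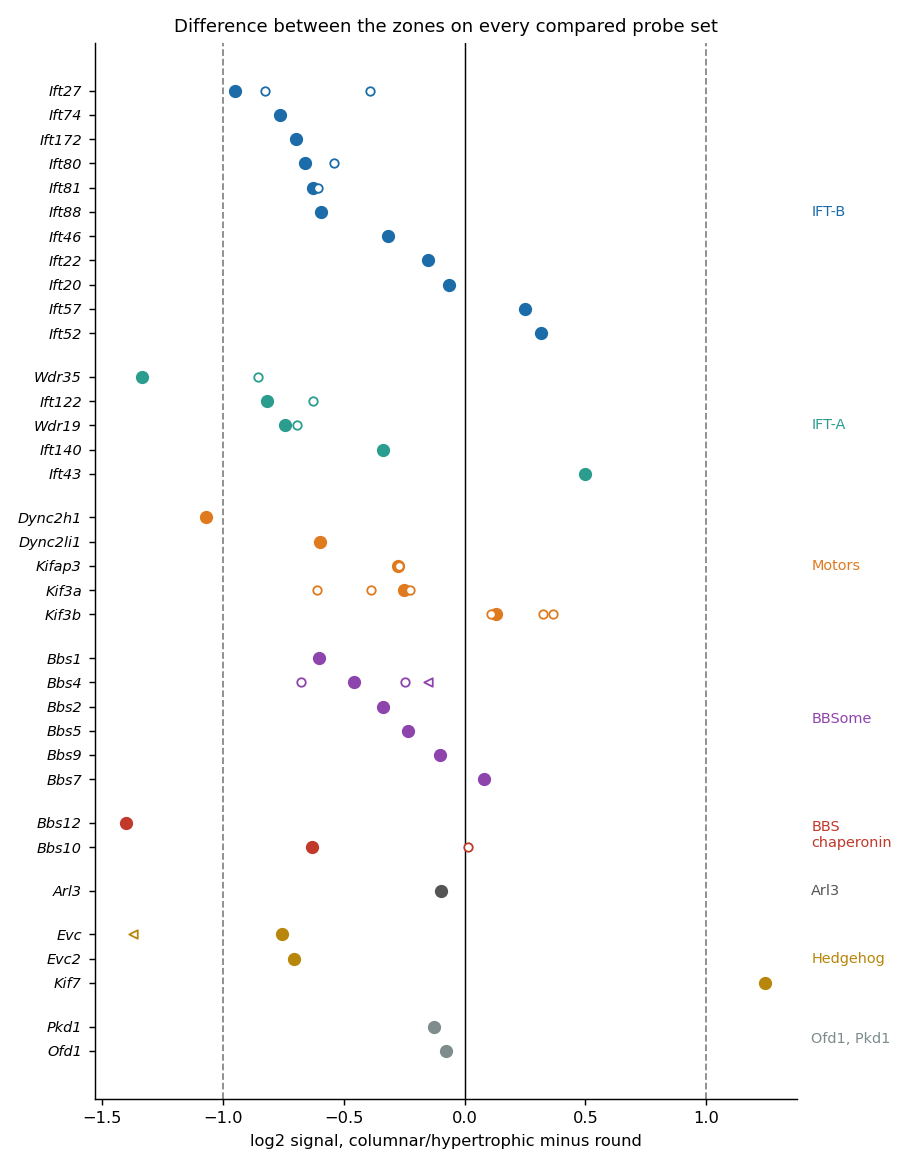
Log2 signal difference, columnar/hypertrophic minus round cartilage, on each of the 54 compared probe sets, by gene and role, with the brightest probe set of a gene filled and the others open. Triangles are bounds, where the columnar/hypertrophic signal lay under the floor, and the dashed lines mark 2-fold. *Bbs12*, *Wdr35* and *Dync2h1* have their brightest probe set left of -1, and *Kif7* lies right of 1.

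IFT-A, which returns the train to the cell body and admits membrane proteins to the cilium, had a median log2 difference of -0.74 over 5 genes. Of these, 4 were lower in columnar/hypertrophic cartilage, against 53.2% of all genes. *Wdr35* (IFT121) had the largest difference among them. Its signals were 568 in columnar/hypertrophic cartilage and 1433 in round cartilage, 2.52-fold lower, and its other probe set gave 168 in columnar/hypertrophic and 303 in round cartilage, a log2 difference of -0.85. *WDR35* is mutated in human short-rib and cranioectodermal disorders.

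The 3 subunits of the IFT-A core were all lower. *Ift122* had signals of 625 in columnar/hypertrophic cartilage and 1101 in round cartilage, and of 305 in columnar/hypertrophic and 471 in round cartilage on its other probe set, with log2 differences of -0.82 and -0.63. *Wdr19* (IFT144) had signals of 225 in columnar/hypertrophic and 377 in round cartilage, a log2 difference of -0.74, and its dim second probe set gave -0.70. *Ift140* had a smaller difference of -0.34 (513 in columnar/hypertrophic and 648 in round cartilage). *Ift43*, a small subunit that binds WDR35, lay on the other side, at 1435 in columnar/hypertrophic cartilage against 1015 in round cartilage, a log2 difference of 0.50. It has 1 probe set, so no other probe set checks this value.

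The motor genes are given by motor. *Dync2h1*, encoding the heavy chain of the dynein-2 motor that pulls trains back from the tip, had signals of 414 in columnar/hypertrophic cartilage and 869 in round cartilage, 2.10-fold lower. Under the 3 other scalings its log2 difference was between -0.98 and -0.96, short of 2-fold. *Dync2li1*, its light intermediate chain, had signals of 664 in columnar/hypertrophic and 1006 in round cartilage, 1.51-fold lower. Human mutations in both cause short-rib thoracic dysplasia.

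The kinesin-2 genes differed less. *Kif3a*, a motor subunit, had log2 differences between -0.61 and -0.23 on 4 probe sets, the brightest of which gave 513 in columnar/hypertrophic cartilage and 610 in round cartilage. *Kifap3*, the cargo-binding subunit, had signals of 1124 in columnar/hypertrophic and 1359 in round cartilage, and both of its probe sets had a log2 difference of -0.27. *Kif3b*, the partner motor subunit of KIF3A, was slightly higher in columnar/hypertrophic cartilage on all 4 probe sets, with log2 differences between 0.11 and 0.36 and signals of 368 in columnar/hypertrophic and 335 in round cartilage on the brightest. All 3 proteins also serve transport outside the cilium. Over the 5 motor genes the median log2 difference was -0.27.

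The BBSome genes had a median log2 difference of -0.29 over 6 genes. Below 0 were 5 of them, against 53.2% of all genes, and none was past 2-fold. The BBSome carries receptors such as G protein-coupled receptors out of the cilium, and its loss causes Bardet-Biedl syndrome in humans. *Bbs1* had signals of 280 in columnar/hypertrophic cartilage and 424 in round cartilage, a log2 difference of -0.60. *Bbs4* lay below 0 on all 4 probe sets, with signals of 203 in columnar/hypertrophic and 279 in round cartilage on the brightest, a log2 difference of -0.46. On the dimmest, *Bbs4* lay under the floor in columnar/hypertrophic cartilage, which gives a bound.

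The remaining BBSome genes were closer to 0. *Bbs2* had signals of 463 in columnar/hypertrophic cartilage and 584 in round cartilage, and *Bbs5* of 512 in columnar/hypertrophic and 602 in round cartilage, with log2 differences of -0.34 and -0.24. *Bbs9* had signals of 276 in columnar/hypertrophic and 296 in round cartilage, and its log2 difference of -0.10 turned to 0.07 after quantile normalization and 0.08 after lowess centring. *Bbs7* had signals of 360 in columnar/hypertrophic and 340 in round cartilage, a log2 difference of 0.08, and its other probe set was under the floor in both arrays.

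The BBS chaperonin genes encode proteins that fold BBS7 into the BBSome. *Bbs12* had the largest difference of the 35 genes in the values as deposited, although that of *Kif7* was larger under the 3 other scalings. It had signals of 235 in columnar/hypertrophic cartilage and 620 in round cartilage, 2.64-fold lower, on its single probe set. *Bbs10* had 140 in columnar/hypertrophic and 217 in round cartilage on its brightest probe set, a log2 difference of -0.63, but 138 in columnar/hypertrophic and 137 in round cartilage on the other, a log2 difference of 0.01. The direction of *Bbs10* therefore depended on the probe set.

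*Arl3*, a small GTPase that releases lipid-modified cargo inside the cilium, was bright and nearly equal, at 4553 in columnar/hypertrophic cartilage and 4865 in round cartilage, a log2 difference of -0.10. *Pkd1*, encoding polycystin-1, had signals of 973 in columnar/hypertrophic and 1062 in round cartilage, a log2 difference of -0.13. *Ofd1*, encoding a basal body protein, had signals of 163 in columnar/hypertrophic and 172 in round cartilage, and its log2 difference of -0.07 turned to between 0.02 and 0.15 under the 3 other scalings. These 3 genes were among the closest to 0 of the set.

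The 3 genes that act on hedgehog signalling at the cilium did not lie on one side. *Evc* and *Evc2* encode a pair of proteins that hold Smoothened at the cilium base, and human mutations in either cause Ellis-van Creveld syndrome, a chondrodysplasia. *Evc* had signals of 234 in columnar/hypertrophic cartilage and 395 in round cartilage, 1.69-fold lower. Its other probe set gave 170 in round cartilage and was under the floor in columnar/hypertrophic cartilage, at least 2.58-fold lower. *Evc2* had signals of 575 in columnar/hypertrophic and 937 in round cartilage, 1.63-fold lower. In GRCm38.p6 these genes are neighbours on chromosome 5 on opposite strands, with starts 1597 bases apart. On their brightest probe sets both were lower by a similar amount, and whether they share regulation was not tested.

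*Kif7*, encoding a kinesin that organises the cilium tip and regulates GLI proteins, was the only one of the 35 genes that was at least 2-fold higher in columnar/hypertrophic cartilage. Its signals were 1269 in columnar/hypertrophic cartilage and 536 in round cartilage, 2.37-fold higher, on its single probe set. Its log2 difference lay between 1.24 and 1.33 under all settings tried.

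The hedgehog chain itself was divided. *Ihh*, the ligand, had signals of 3900 in columnar/hypertrophic cartilage and 87.8 in round cartilage. *Ptch1*, the receptor and a direct target, had signals of 15950 in columnar/hypertrophic and 6436 in round cartilage, with log2 differences between 1.29 and 1.82 over 3 probe sets. *Gli1*, also a target, was 1.83-fold higher. These lay on the side of *Kif7*.

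The signal transducers *Smo*, *Gli2* and *Gli3*, which work in the cilium, lay on the other side. Of the same chain, *Sufu* had log2 differences of -0.37 and 0.06, and *Hhip*, a target like *Ptch1* and *Gli1*, between -0.43 and 0.73 over 4 probe sets. Neither had a single sign. *Smo* transduces the signal in the ciliary membrane. It had signals of 3451 in columnar/hypertrophic cartilage and 4883 in round cartilage, with log2 differences between -1.35 and -0.47 over 3 probe sets. *Gli2* and *Gli3*, the GLI factors processed at the cilium, had log2 differences of -0.87 and -0.90 on their brightest probe sets, and *Gli3* ranged up to -0.11 on another. The co-receptors *Gas1*, *Boc* and *Cdon* had log2 differences of -3.60, -3.20 and -1.98 on their brightest probe sets. The other probe set of *Cdon* gave -0.50, so its 2-fold difference rests on 1 probe set. Over 12 compared genes of the chain, 3 were at least 2-fold higher in columnar/hypertrophic cartilage (*Ihh*, *Ptch1* and *Pth1r*, the receptor for parathyroid hormone-related protein) and 3 at least 2-fold lower, the co-receptors. The shares over all genes were 4.28% and 6.25%. Markers of perichondrium and fibroblasts were mostly lower as well, and their part in the co-receptor differences was not tested.

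Other genes of the cilium, taken from 4 lists that hold none of the 35 genes, leaned the same way. Of 66 compared genes, 54 (81.8%) had a log2 difference below 0, against 53.2% of all genes, and their median was -0.27. At least 2-fold lower were 5 (7.58%), close to the 6.25% of all genes, and none was at least 2-fold higher, against 4.28% of all genes. These genes are measured on the same 2 arrays, so they do not provide a repeat of the comparison.

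Transition zone genes encode the gate at the base of the cilium. Of 18 genes, 15 were below 0, with a median log2 difference of -0.39. *Tctn2*, of the tectonic complex, had signals of 196 in columnar/hypertrophic cartilage and 457 in round cartilage, 2.33-fold lower. *Nphp4* had signals of 147 in columnar/hypertrophic and 295 in round cartilage, just short of 2-fold, and *Iqcb1* had a log2 difference of -0.89. The exceptions above 0 were *Ahi1* at 0.31, *B9d2* at 0.06 and *Mks1* at 0.03.

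Basal body and assembly genes had a median log2 difference of -0.35, with 19 of 21 below 0. *Rab3ip* (Rabin8), which activates RAB8 for growth of the ciliary membrane, had signals of 101 in columnar/hypertrophic cartilage and 242 in round cartilage, 2.40-fold lower. *Cep97*, which caps the centriole and restrains assembly, had signals of 364 in columnar/hypertrophic and 746 in round cartilage, 2.05-fold lower, with log2 differences between -1.04 and -0.12 on 4 probe sets. *Fbf1* had a log2 difference of -0.89. *Cplane1* had one of -0.88 on its brightest probe set and of -0.10 on the one closest to 0.

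Other IFT and BBSome subunits, listed under other symbols, had a median log2 difference of -0.21, with 12 of 17 below 0. *Ttc30b* (an IFT70 gene) was 2.03-fold lower, at 483 in columnar/hypertrophic cartilage and 982 in round cartilage. *Ttc8* (BBS8) had a log2 difference of -0.90, and *Wdr34*, a dynein-2 intermediate chain, one of -0.83. *Hspb11*, which encodes IFT25, the partner of IFT27, was higher instead, at 4306 in columnar/hypertrophic and 2528 in round cartilage on its brightest probe set, a log2 difference of 0.77, and the other probe set gave 0.23. The transcripts of this protein pair thus lay on opposite sides, with *Ift27* below 0 on all 3 of its probe sets.

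Genes for the ciliary membrane and its lipid-modified cargo had a median close to 0, -0.09 over 10 genes, which was 0.00 when differences were centred on their median. *Gpr161*, a receptor that restrains hedgehog signalling, was the only one past 2-fold, with 153 in round cartilage and a signal under the floor in columnar/hypertrophic cartilage, at least 2.32-fold lower. *Rp2*, which acts on ARL3, had a log2 difference of -0.78 on its brightest probe set, but its 5 probe sets reached between -0.94 and 0.15.

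**Figure D5:**
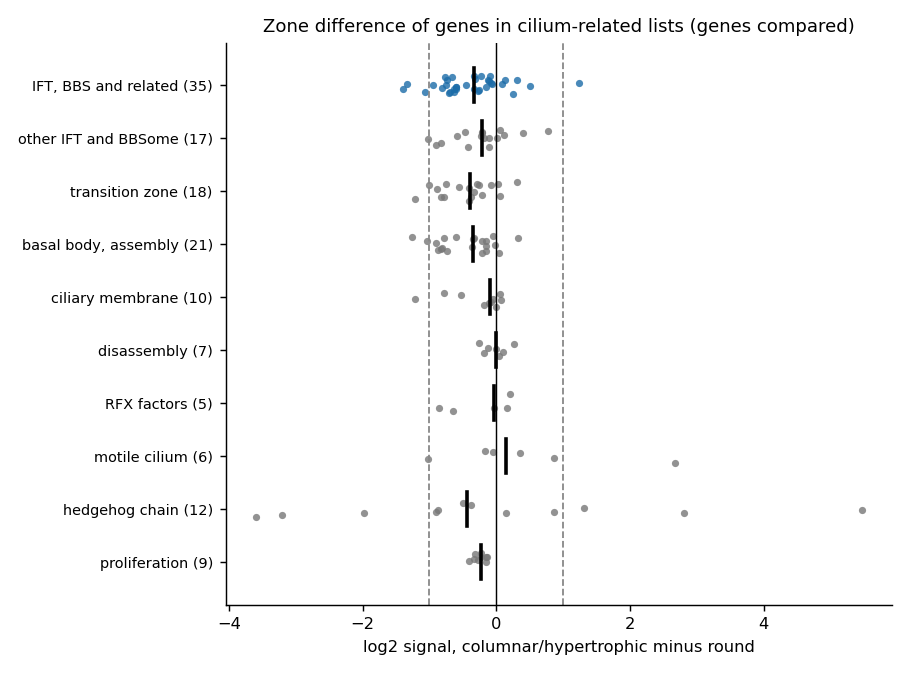
Log2 signal difference, columnar/hypertrophic minus round cartilage, for single genes (points, spread vertically only for visibility) and their median (bars), in the 35 cilium genes and 9 related lists, with the number of genes compared in brackets. The dashed lines mark 2-fold. The medians lie at -0.34 for the 35 genes, -0.39 for the transition zone and 0.00 for disassembly, and the hedgehog chain spreads widest, between -3.60 and 5.47.

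Cell division and the cilium are linked, because the cilium is taken down before mitosis. The 9 compared proliferation genes were all lower in columnar/hypertrophic cartilage, where 53.2% of all genes were lower. On their brightest probe sets, their log2 differences lay between -0.41 and -0.14, with a median of -0.23. Other probe sets reached -0.63 for *Top2a*, -0.55 for *Bub1* and -0.09 for *Ccna2*. Whether proliferation has a part in the difference of the cilium genes was not tested. Genes of cilium disassembly had a median of 0.00 over 7 genes (between 0.05 and 0.09 under the 3 other scalings). The largest differences were those of *Plk1*, a kinase of mitosis, at 0.27 and *Hdac6*, the tubulin deacetylase, at -0.26. *Aurka*, the kinase that starts disassembly, was at 0.11.

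Most listed genes of motile cilia were under the floor. Of 16 genes on the array, 10 lay under the floor in both arrays, where the share over all named genes was 29.9%, among them *Foxj1*, the master regulator of motile cilia, and the dynein arm genes *Dnah5*, *Dnah9* and *Dnaic1*. The other 6 genes were above the floor in at least 1 array. *Ccdc39* was 2.02-fold lower in columnar/hypertrophic cartilage (83.5 against 169 in round cartilage), and *Rsph1* gave 419 in columnar/hypertrophic cartilage and lay under the floor in round cartilage, at least 6.36-fold higher.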

How the data were processed

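The authors deposited linear intensities, 1 per probe set, measured on Affymetrix mouse genome arrays. MAS5, which scales each array by a trimmed mean, is named without a version in the submitters' processing notes. The methods describe the round specimen only and name robust multiarray analysis for heatmaps; such log values were not used here. Platform annotation gave 1 gene symbol for 34945 of 45037 probe sets and several for 932, which were left unnamed, and 9160 were unnamed. Probe sets under the floor in both arrays were left out. Where 1 array lay under it, the floor replaced its value and the difference is a bound. Genes were represented by their brightest probe set (mean log2 signal). Zones were taken from the sample titles. No test was made, and sizes of 2-fold and 1.5-fold were set beside the share of all features that met them.

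The genes and lists were chosen with earlier results of these data known. All 35 genes were given by role. From the other lists, genes at least 2-fold apart and up to 2 more with the largest differences were to be named, and any others were picked with their values in view. Processing was varied by median centring, quantile normalization, lowess centring (fraction 0.3), a floor at the 20th percentile, one at the 60th or none, averaging over probe sets, dropping unspecific probe sets, and a 1.5-fold or 3-fold rule. The steps were tested on simulated data. Python 3.11.15 was used with numpy 2.4.6, pandas 2.3.3 and, for lowess, statsmodels 0.14.6, and figures were drawn with matplotlib 3.10.9. Promoter sequences are from RefSeq, GRCm38.p6. The number of arrays limits the precision.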

Additional observations from a re-analysis of the deposited data

How the results depend on the processing

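No paired analysis was possible because there was a single array of either zone. The median log2 difference of the cilium genes stayed between -0.34 and -0.25 over the 8 alternatives, and that of all genes between -0.06 and 0.05. Of the 35 genes, 25 were below 0 and 6 above 0 under all 9 settings, and the sign of *Bbs9*, *Bbs10*, *Ift20* and *Ofd1* turned under at least 1. *Bbs10* was at 0.01 on specific probe sets only. The count of probe sets at least 2-fold lower in columnar/hypertrophic cartilage, 4, was 24 under a 1.5-fold rule and 0 under a 3-fold rule, and the count at least 2-fold higher, 1, was 0 under a 3-fold rule, by construction of the rules. The motile cilium median was 0.68 with the floor at the 60th percentile, against 0.15. *Ofd1*, with signals up to 172, lay under that floor in both arrays. So did *Dnah11*, *Hydin*, *Ccdc39* and *Ccdc40*, with none above 169. The median of 0.68 thus rests on *Tubb4b* and on *Rsph1*, whose difference is a bound. Medians of the motile, RFX, disassembly, ciliary membrane and *Ofd1* with *Pkd1* groups lay close enough to 0 to turn sign under at least 1 alternative. Depth is not measured by arrays, and dim signals near the floor carry the least information.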

Other observations

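RFX transcription factors, which bind the X-box, were detected for 5 of 6 genes, with *Rfx4* under the floor in both arrays. *Rfx3*, a regulator of cilium genes in mouse, had signals of 245 in columnar/hypertrophic and 446 in round cartilage, 1.82-fold lower, with -0.86 and -0.68 as the log2 differences of its probe sets. *Rfx5*, which regulates MHC class II genes, had a log2 difference of -0.64. *Rfx1*, *Rfx2* and *Rfx7* had log2 differences of 0.21, -0.03 and 0.16. The median of the 5 genes, -0.03, has no fixed sign, and lay between -0.24 and 0.18 over the settings.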
